A study of Mus musculus with 91 samples.

Results

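The genes described here encode neuropeptides of the forebrain, together with markers of the inhibitory neurons that make many of them. They were chosen by name, and any probe whose annotated symbol matched was taken. Of 10 listed genes, 9 had a named probe: Sst, Cort, Npy, Vip, Cck, Tac1, Adcyap1, Crhbp and Pvalb. Crh, which encodes corticotropin-releasing hormone, had none and was not measured here. Cort was read by 2 probes and the others by 1 each, so that 10 of the 25697 probes on the array belong to the set. All 10 were detected on all 91 arrays, and all passed the filter on low signal in both tissues. Cort is given below by its brighter probe unless the dimmer probe is named.

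Neuropeptides are cut from larger precursor proteins, stored in dense-core vesicles and released when a neuron fires in bursts. They act mostly on G protein-coupled receptors. In cortex and hippocampus, somatostatin, neuropeptide Y, cortistatin and vasoactive intestinal peptide are made by subclasses of GABAergic interneurons. Parvalbumin marks a further, fast-spiking class, and cholecystokinin and PACAP are also made by excitatory neurons.

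RNA of left frontal cortex and left whole hippocampus was hybridised to Illumina bead arrays, whose beads each carry copies of a single probe. The APP/PS1 mouse carries 2 transgenes for familial Alzheimer's disease and deposits amyloid plaques. Its transgenes are driven by the Thy1 promoter, which is active in neurons. There were 4 groups: wild-type (WT) littermates given PBS (12 cortical and 12 hippocampal arrays), APP/PS1 mice given PBS (9 and 9), APP/PS1 mice given a control antisense oligonucleotide without a target (CON ASO, 13 and 13) and APP/PS1 mice given an oligonucleotide against CD33, an inhibitory receptor of microglia (CD33 ASO, 11 and 12). All mice had a cannula in the right lateral ventricle and an osmotic pump. Infusion ran for 14 days, at 50 µg of oligonucleotide per day, starting at an age of 18 weeks, and the brains were collected at 22 weeks. In all 47 mice were used, and 44 gave both tissues. Replicates are separate mice.

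Between 12555 and 13905 probes were detected per array. Gad1, the GABA-synthesising enzyme, and Slc17a7, the vesicular glutamate transporter of cortical excitatory neurons, were detected on every array of both tissues. One animal went against its label. The CD33 ASO array numbered 3 in each tissue (mouse 5) read Thy1 at 14.1 in cortex and 14.0 in hippocampus (log2 signal), where the other APP/PS1 arrays lay above 14.7, and its Cst7, a marker of plaque-associated microglia, was also the lowest of its group. Avil, which was detected on all 11 cortical CD33 ASO arrays and on none of the cortical arrays of other groups, was not detected on the hippocampal CD33 ASO arrays 7 and 10 (mice 31 and 13). Beside the main results on spread, correlation and Cort, values without these 3 mice, or without mouse 5 alone, are given. Correlations over all arrays include them, as does the hippocampal comparison of CD33 ASO with CON ASO. The arrays hold bulk tissue, so fewer cells of a type and less RNA per cell cannot be told apart.

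Several of these genes are textbook targets of cAMP signalling. The cAMP response element TGACGTCA was first described in the rat somatostatin gene, and its shorter form TGACG, which reads CGTCA on the other strand, is also bound by CREB-family factors. The 100 bases before the RefSeq transcription start (GRCm38.p6) were searched for TGACG on both strands. Of the 9 measured genes, 7 held it before the first listed start, against 10.5% of 32851 mouse promoter windows of that length. The full TGACGTCA was held by 1 (Sst), against 1.15%. The window of the other listed start of Adcyap1 did not hold the site. TGACGTCA contains both forms of the short site, which overlap in it. The stretches of 30 bases around the site are printed gene by gene because they let the members be compared with how each moved in cortex. Capitals mark TGACG or CGTCA, and each is read 5′ to 3′ on the gene's strand.
Sst (chr16:23890874-23890903, minus strand, 48 bases before the start): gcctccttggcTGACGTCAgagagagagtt
Vip (chr10:5639128-5639157, plus strand, 79 bases before the start): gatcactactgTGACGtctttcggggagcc
Adcyap1 (chr17:93198917-93198946, plus strand, 91 bases before the first of 2 listed starts): ctaggatgcTGACGtcttttactgataccg
Cck (chr9:121495723-121495752, minus strand, 47 bases before the start): ctgctggactgCGTCAgcactgggtaaaca
Crhbp (chr13:95444877-95444906, minus strand, 64 bases before the start): agctggaccctCGTCAttgccacgcatttt
Tac1 (chr6:7555007-7555036, plus strand, 43 bases before the start): ctctacaggctCGTCAcgcctgagataaat
Cort (chr4:149126764-149126793, minus strand, 18 bases before the start): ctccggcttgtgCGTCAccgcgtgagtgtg
The windows of Npy and Pvalb held neither form. In APP/PS1 cortex (below) Npy and Pvalb fell, and of the 7 genes that hold the site Vip and Tac1 did not pass the test. A match of letters is a description, and binding was not measured.

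The 9 genes differed in how they were spread between the tissues. In WT mice given PBS, Tac1, the precursor of substance P and neurokinin A, had a cortical signal from 11.2 to 11.8 and a hippocampal signal from 7.81 to 8.45 (log2, both tissues normalized together), a difference of -3.25 ± 0.09 (SE, 12 mice per tissue). The difference was -1.61 for Vip, -1.57 for Adcyap1, the precursor of PACAP, and -0.53 for Npy. Crhbp, the secreted binding protein of corticotropin-releasing hormone, ran the other way and was 0.66 ± 0.09 higher in hippocampus, as was Cort by 0.48 (adjusted p = 0.0143). The remaining 3 were close in both tissues: Sst differed by -0.18, Pvalb by -0.14 and Cck by -0.10. All 9 passed an adjusted p of 0.05 in limma with the mouse as a random block, where 55.5% of 14884 probes did. The calls of Sst, Pvalb and Cck were lost under median centring (adjusted p = 0.104, 0.329 and 0.559), and the dimmer Cort probe did not pass (0.15, adjusted p = 0.475). In APP/PS1 mice given PBS, 7 of 9 passed, where 50.7% of probes did. Cck was there 0.16 higher in hippocampus (adjusted p = 0.00638), and Sst and Pvalb did not pass. Over the cortical arrays of all groups, Tac1 had a Pearson's r of 0.42 with the mean level of 9 striatal markers. The part of neighbouring striatum in the cortical Tac1 signal was not tested.

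**Figure D1:**
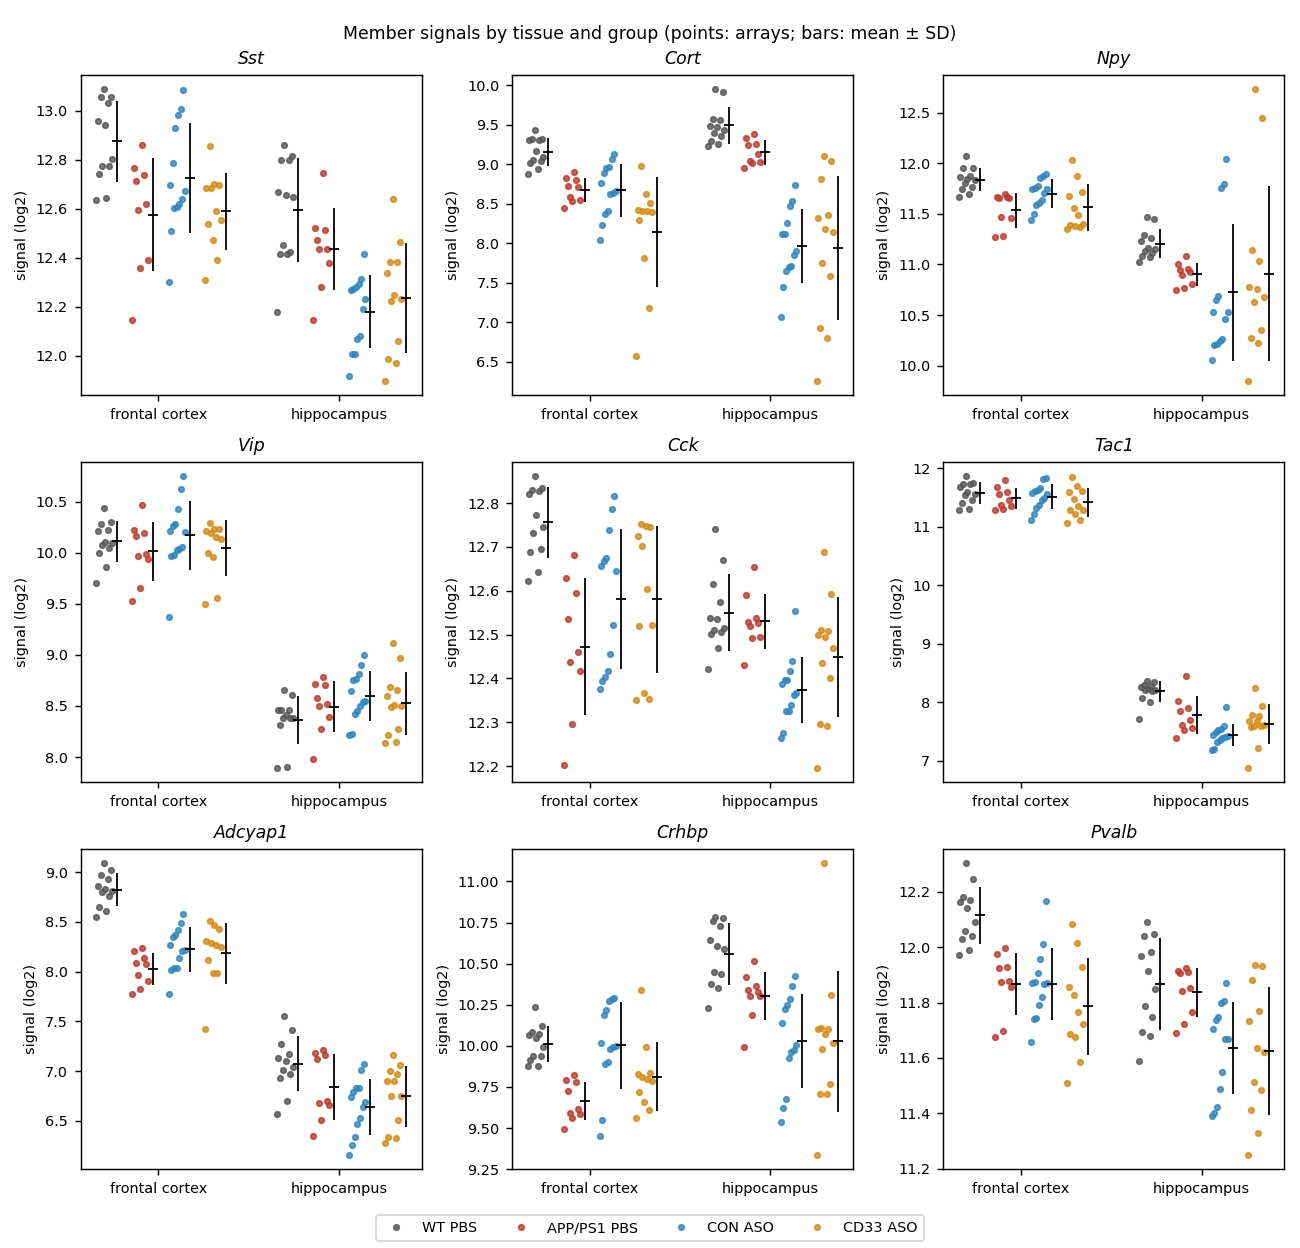
Signal (log2) of each measured gene in frontal cortex and hippocampus, with 1 point per array and the mean ± SD of each group as a bar. WT PBS arrays of Adcyap1 in cortex lie between 8.55 and 9.09, above all APP/PS1 PBS arrays, and hippocampal Cort lies lower in both oligonucleotide groups.

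In frontal cortex, most of the measured members were lower in APP/PS1 mice than in WT littermates when both had received PBS. Of 9 members, 7 fell and none rose, where 10.7% of 14346 probes fell. The members' median difference was -0.30, against -0.03 over all probes tested. All 7 had the same sign on each of 6 chips and each of 4 collection days. This is a description, since the 7 were picked by a test on these same arrays. Some chips held only 1 cortical APP/PS1 PBS array. For Adcyap1 and Crhbp, whose groups did not overlap (below), the sign was fixed in advance. The share of all called probes with the same sign throughout is not given.

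Adcyap1 showed the widest gap. PACAP, its product, is a peptide of the VIP family that raises cAMP in neurons. WT PBS arrays had signals of 8.55 to 9.09 with a median of 8.82, and APP/PS1 PBS arrays 7.78 to 8.24 with a median of 8.08. The groups did not overlap, and the difference was -0.80 ± 0.10 (SE, limma adjusted p = 5.70e-09), a 1.74-fold lower signal.

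Crhbp also separated the groups fully, from 9.88 to 10.2 (median 10.0) in WT PBS and from 9.50 to 9.82 (median 9.62) in APP/PS1 PBS. It differed by -0.35 ± 0.08 (limma adjusted p = 0.00154). The share of all probes that separate these groups fully is not given, so the separation of Adcyap1 and Crhbp is a description. Npy, which restrains glutamate release, lay between 11.7 and 12.1 (median 11.8) in WT PBS and between 11.3 and 11.7 (median 11.7) in APP/PS1 PBS, overlapping at the edge, and differed by -0.31 ± 0.07 (adjusted p = 0.00148).

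Sst, Pvalb and Cck also fell. Sst, the precursor of somatostatin, which marks dendrite-targeting interneurons, ranged from 12.6 to 13.1 (median 12.9) in WT PBS and from 12.1 to 12.9 (median 12.6) in APP/PS1 PBS and differed by -0.30 ± 0.08 (limma adjusted p = 0.00913). Pvalb, which encodes a calcium-binding protein of fast-spiking cells, differed by -0.25 ± 0.06 (adjusted p = 0.00114). Cck, the precursor of cholecystokinin, differed by -0.28 ± 0.06 (adjusted p = 5.77e-04). The ranges of these 3 genes overlapped between the groups.

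Cort encodes cortistatin, a relative of somatostatin that binds the same receptors. Its arrays ranged from 8.88 to 9.44 in WT PBS and from 8.45 to 8.90 in APP/PS1 PBS, overlapping at the edge, a difference of -0.48 ± 0.17 (limma adjusted p = 0.0447). The dimmer probe gave -0.50 and did not pass (adjusted p = 0.0681). The call of the brighter probe is close to the threshold: it was lost without WT PBS array 1, 2, 4, 6, 11 or 12 or APP/PS1 PBS array 1, 2, 3, 4, 7, 8 or 9, with adjusted p up to 0.0822. It was also lost without the filter on low signal (adjusted p = 0.0849) and with the collection day as a block (0.0504). The ASO groups, whose Cort varied more (below), share the estimate of spread, and with the 2 PBS groups fitted alone the adjusted p was 7.29e-06.

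Tac1 (-0.09, 95% interval -0.27 to 0.09) and Vip (-0.10, -0.34 to 0.15) did not pass. Of general neuronal and GABAergic genes fixed by name, 2 of 14 further inhibitory-neuron genes fell: Nxph1, a neurexophilin, by 0.23 and Kcnc1, a potassium channel of fast-spiking cells, by 0.13. The list's median was -0.11. Excitatory neurons, which also make Cck and Adcyap1, had 3 of 7 measured markers that passed and were lower: Slc17a6, a vesicular glutamate transporter, differed by -0.32, Tbr1, a transcription factor of deep-layer cells, by -0.32 and Nrn1, which encodes neuritin, by -0.27 (the list's median was -0.08). Of the 7, only 4 lay below 0, and the largest value was 0.07. Slc17a7 had a mean signal of 12.8 in both PBS groups. The mean level of the 7 markers ranged from 11.2 to 11.4 in WT PBS and from 11.1 to 11.2 in APP/PS1 PBS. Of 8 markers common to all neurons 1 fell, Syt1, a calcium sensor of synaptic vesicles, at -0.13, with a list median of -0.03. The counts of inhibitory-neuron genes (2 of 14) and of general neuronal markers (1 of 8) are near the 10.7% of all probes that fell. The part of these in the members' values was not tested.

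Other genes of the peptide pathway were read in the same samples, where 10.7% of all probes fell. Among 16 measured genes of peptide processing and dense-core vesicles, 4 fell and 1 rose, with a median of -0.13. Scg2, a granin of the vesicle core and the precursor of secretoneurin, fell by 0.32 (limma adjusted p = 3.63e-04). Vgf, a precursor of several neuronal peptides, fell by 0.37, Chga, a further granin, by 0.33 and Rab3b, a GTPase of secretory vesicles, by 0.23. The gene that rose was Ctsb, at 0.35, a protease of lysosomes also made by microglia. All 6 measured microglial markers rose in the same comparison (median 1.98), where 8.53% of probes rose, as did Gfap, the intermediate filament of astrocytes, by 2.57, and the part of this in the members' values was not tested.

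The shares of the next lists are also to be read against the 10.7% of probes that fell. Of 22 measured activity-regulated genes, 8 fell and 21 had a difference below 0 (median -0.32), among them Scg2 and Vgf, which the previous list holds too. Dusp1, a phosphatase induced by activity, fell by 0.67 and Jun, a subunit of AP-1, by 0.33. Of 9 measured receptors of the members' peptides 1 passed, Npy5r, a receptor of neuropeptide Y, at -0.25 (limma adjusted p = 0.0120). Npy1r differed by -0.19 (adjusted p = 0.0740), Adcyap1r1, the PACAP receptor, by -0.17 (adjusted p = 0.148) and Cckbr by -0.13 (adjusted p = 0.109). The other 5 receptors lay between -0.16 and 0.03. Of 17 other neuropeptide precursors, Vgf and Kiss1 (-0.43, adjusted p = 0.0468) passed. The counts of receptors (1 of 9) and of other precursors (2 of 17) are near that background.

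**Figure D2:**
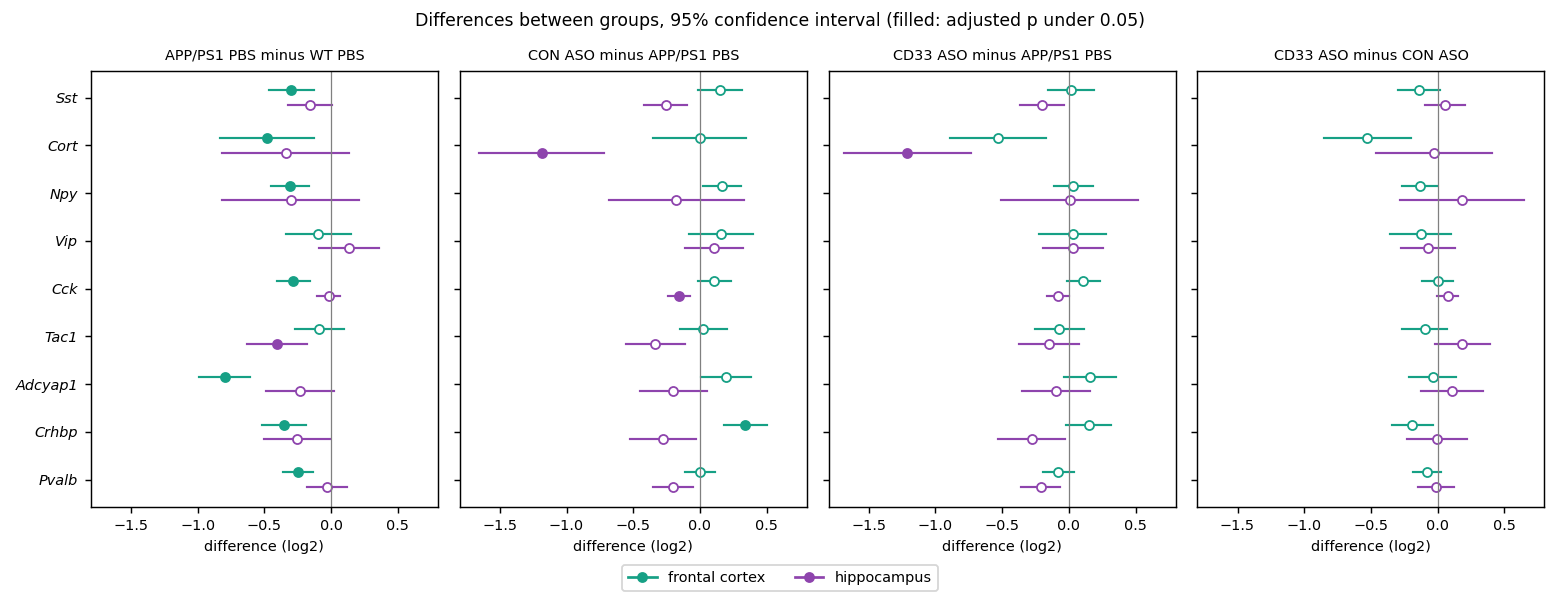
Differences between groups in log2 signal with their 95% confidence intervals, for 9 genes in frontal cortex (green) and hippocampus (purple). Filled points passed an adjusted p of 0.05: 7 cortical genes and hippocampal Tac1 for APP/PS1 PBS against WT PBS, hippocampal Cort and Cck and cortical Crhbp for CON ASO against APP/PS1 PBS, and hippocampal Cort for CD33 ASO against APP/PS1 PBS.

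In hippocampus, 1 of 9 members fell with genotype, where 0.671% of 14449 probes fell. Tac1 had signals of 7.71 to 8.37 with a median of 8.22 in WT PBS and 7.39 to 8.44 with a median of 7.70 in APP/PS1 PBS. The ranges overlapped, and the difference was -0.40 ± 0.11 (SE, limma adjusted p = 0.0331). It was lost without WT PBS array 2, 5, 6 or 10 or APP/PS1 PBS array 3, 5, 6, 7 or 8 (adjusted p up to 0.117). The interaction with tissue, -0.31, did not pass (adjusted p = 0.210). In the same comparison 4 of 6 microglial markers rose (median 1.19), where 1.82% of probes did, and of 4 astrocyte markers only Gfap rose, by 1.13 (limma adjusted p = 1.70e-06). The mean level of the microglial markers ranged from 6.75 to 7.10 in WT PBS and from 8.08 to 8.66 in APP/PS1 PBS. All 6 choroid plexus markers lay below 0 (median -0.97) with 0 called in limma and 0 at an unadjusted p under 0.05, and their mean level ranged from 6.93 to 11.3 in WT PBS and from 6.85 to 10.7 in APP/PS1 PBS. The part of these in the members' values was not tested.

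The other hippocampal members gave -0.34 for Cort, -0.30 for Npy, -0.26 for Crhbp, -0.23 for Adcyap1, -0.16 for Sst, -0.03 for Pvalb, -0.02 for Cck and 0.13 for Vip. The wide spread of Npy and Cort in the ASO groups enters the shared estimate. When the 2 PBS groups were fitted alone, 4 members passed, where 3.67% of probes did: Npy (adjusted p = 8.72e-04), Cort (0.0173), Tac1 (0.0222) and Crhbp (0.0368). Npy lay between 11.0 and 11.5 in WT PBS and between 10.7 and 11.1 in APP/PS1 PBS, overlapping at the edge.

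The genotype difference was tested between tissues. For Adcyap1 it was 0.58 ± 0.15 less negative in hippocampus (limma adjusted p = 0.00979), and for Cck 0.26 ± 0.07 (adjusted p = 0.0142), so that 2 of 9 members passed, where 3.38% of probes did. For Npy the interaction was 0.00 with a 95% interval of -0.47 to 0.48, which does not exclude a difference of that size in either direction.

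The control oligonucleotide carries no target, and its comparison with PBS in APP/PS1 mice asks what infusion of an oligonucleotide itself does. In hippocampus Cort was lower in this group. PBS-treated APP/PS1 arrays had signals of 8.95 to 9.39 with a median of 9.13, and CON ASO arrays 7.07 to 8.74 with a median of 7.91. The groups did not overlap. The difference was -1.19 ± 0.23 (SE, limma adjusted p = 0.00259), a signal lower by 2.27-fold, and the dimmer probe, which also did not overlap, gave -1.23 (adjusted p = 8.29e-04). Since the groups did not overlap, both probes necessarily had this sign on all 6 chips and all 4 days, which is no separate result. The share of all probes without overlap between these groups is not given.

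Cort was also lower in the hippocampus of mice given the oligonucleotide against CD33. It ranged from 6.26 to 9.11 with a median of 8.16 in CD33 ASO, and 10 of 12 arrays lay below every PBS-treated array of either genotype. The arrays above that limit were those of mice 31 and 13, at 9.11 and 9.04, in which Avil was not detected. The difference from APP/PS1 PBS was -1.21 ± 0.24 (limma adjusted p = 0.0102) with these mice and -1.44 (adjusted p = 6.92e-05) over mice measured in both tissues, which leaves them out. Without mouse 5 it was -1.29 (adjusted p = 0.00493). It did not pass with the compared groups fitted alone (adjusted p = 0.148). CD33 ASO and CON ASO differed by -0.03, with a 95% interval of -0.46 to 0.41. That value includes mouse 5 and mice 31 and 13, whose Cort was the highest of the CD33 ASO group. It is not given without them.

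Cck was the other hippocampal member lower in CON ASO than in APP/PS1 PBS, with a difference of -0.16 ± 0.04 (limma adjusted p = 0.0394), so that 2 of 9 fell, where 0.471% of probes did. The Cck call was lost under median centring (adjusted p = 0.291), without the filter (0.0626), and without CON ASO array 2, 6, 8, 9, 10, 11 or 13 or APP/PS1 PBS array 2, 3, 4, 5, 7 or 9 (adjusted p up to 0.104). In the comparison of CD33 ASO with APP/PS1 PBS only Cort passed, 1 of 9, where 0.325% of probes fell. Sst (-0.26), Tac1 (-0.34) and Pvalb (-0.20) in CON ASO had unadjusted p of 0.00248, 0.00352 and 0.00791 and did not pass (adjusted p = 0.101, 0.118 and 0.170). Sst passed under median centring (adjusted p = 0.0461), with array weights (0.0396), with the chip as a block (0.0244) and with the compared groups alone (0.0376). Pvalb passed with the chip as a block (0.0287) and Tac1 with array weights (0.0486). These comparisons share the same 9 APP/PS1 PBS arrays, which also serve the genotype comparison.

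In frontal cortex the same comparison gave 1 member, in the other direction. Crhbp ranged from 9.45 to 10.3 with a median of 10.0 in CON ASO, and from 9.50 to 9.82 with a median of 9.62 in APP/PS1 PBS. It was higher by 0.34 ± 0.08 (limma adjusted p = 0.0124), where 1.15% of probes rose. The ranges overlapped. Cortical Cort had a 95% interval of -0.35 to 0.34 around a difference near 0. None of 9 cortical members passed for CD33 ASO against APP/PS1 PBS in limma, where 1.36% of probes did and 1 member, Cort, had an unadjusted p under 0.05 (-0.53, adjusted p = 0.144, and -0.61, adjusted p = 0.0605, without mouse 5).

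The tissue difference of the CON ASO comparison passed for Cort (-1.17 ± 0.26) and Crhbp (-0.62 ± 0.13), each with a limma adjusted p of 0.0304. Only 10 of 14884 probes passed in it, 0.0672%, and 3 of them were probes of these genes, counting both for Cort. These calls need the mouse block and the filter: without the block the adjusted p was 0.210 for Cort and 0.164 for Crhbp, and without the filter 0.120 and 0.101. In the interaction of tissue with CD33 ASO against CON ASO 0 of 9 members passed in limma, as did 0% of probes (1365 had an unadjusted p under 0.05, among them those of Tac1, at 0.27, and the dimmer Cort probe). In that with CD33 ASO against APP/PS1 PBS 0 of 9 passed, where 0.047% of probes did, and 4 of 9 had an unadjusted p under 0.05.

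Of the other precursors, 1 of 17 in cortex and 1 of 14 in hippocampus was lower in each oligonucleotide group than in APP/PS1 PBS. Of all probes, 1.48% fell in cortex and 0.471% in hippocampus for CON ASO, and 0.843% and 0.325% for CD33 ASO, and the counts of lower genes below are to be read against these shares. The precursor was Cartpt in each case. Cartpt, the precursor of the CART peptide, differed from APP/PS1 PBS by -0.34 in cortex and -0.49 in hippocampus for CON ASO, and -0.43 and -0.52 for CD33 ASO (limma adjusted p = 0.0117, 0.0310, 0.00247 and 0.0413, in that order). In CON ASO cortex, Vgf was higher by 0.36 and Chgb by 0.28. Marker lists of neighbouring tissue and of oligodendrocytes gave these values. Of 8 markers of hippocampal fields measured in cortex, 2 rose for CON ASO (list median 0.03, largest 0.53), where 1.15% of probes rose. For CD33 ASO 0 of 8 did, where 0.516% of probes rose. In hippocampus 1 of 8 rose in each oligonucleotide group, where 0.824% of probes rose for CON ASO and 0.18% for CD33 ASO. All 9 striatal markers measured in cortex lay below 0 for CON ASO (median -0.27) and for CD33 ASO (median -0.17), with 0 called by limma in either and 7 and 1 at an unadjusted p under 0.05. Their mean level ranged from 9.18 to 9.67 in CON ASO, from 9.18 to 9.86 in CD33 ASO and from 9.44 to 10.0 in APP/PS1 PBS. The 6 choroid plexus markers in hippocampus had a median of 1.35 for CON ASO and 0.74 for CD33 ASO, with 0 called by limma in either and 3 and 0 at an unadjusted p under 0.05. Their mean level ranged from 7.84 to 11.2 in CON ASO, from 7.51 to 11.1 in CD33 ASO and from 6.85 to 10.7 in APP/PS1 PBS. All 3 oligodendrocyte markers measured lay below 0 against APP/PS1 PBS in both tissues and both oligonucleotide groups. In cortex 1 of 3 fell for CON ASO (Mbp, a myelin protein, at -0.17) and 1 of 3 for CD33 ASO (Mog, a further myelin protein, at -0.52). In hippocampus 0 of 3 passed in limma for CON ASO (median -0.13, with Mbp and Mog at an unadjusted p under 0.05) and 2 of 3 for CD33 ASO (Mog at -0.62 and Mobp at -0.46). Their mean hippocampal level ranged from 11.4 to 11.9 in APP/PS1 PBS, from 11.2 to 11.7 in CON ASO and from 10.9 to 11.8 in CD33 ASO, and its correlation with hippocampal Cort over all 46 arrays was 0.54. The part of these lists in the members' values was not tested.

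Between CD33 ASO and CON ASO, the target and the sequence of the oligonucleotide differ. Cd33 differed by -0.71 in cortex (limma adjusted p = 0.0147) and by -0.92 in hippocampus (1.94e-07). Avil was detected on all 11 cortical CD33 ASO arrays and on none of CON ASO. CD33 lowering and other effects of the oligonucleotide's sequence therefore cannot be told apart here. No member passed in either tissue in limma, where 0.153% of cortical and 0.118% of hippocampal probes passed. In cortex all 9 differences were below 0 (median -0.13, against 0.00 over all probes), and 3 had an unadjusted p under 0.05: Cort at -0.53 (95% interval -0.85 to -0.20, adjusted p = 0.216), Crhbp at -0.19 (adjusted p = 0.400) and Npy at -0.13 (adjusted p = 0.505). Cortical Cort ranged from 6.57 to 8.98 with a median of 8.40 in CD33 ASO and from 8.04 to 9.13 with a median of 8.67 in CON ASO. The low end was mouse 39 at 6.57 and mouse 20 at 7.19, and leaving out single arrays moved the difference between -0.61 (without mouse 5, adjusted p = 0.0919) and -0.37 (without mouse 39). In hippocampus 0 of 9 had an unadjusted p under 0.05, and the values ran from -0.07 (Vip) to 0.19 (Tac1).

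Within the oligonucleotide groups, individual mice differed far more in hippocampal Npy and Cort than PBS-treated mice did. The SD of hippocampal Npy was 0.14 in WT PBS and 0.11 in APP/PS1 PBS, but 0.68 in CON ASO and 0.87 in CD33 ASO. Group means hid this, since CON ASO differed from APP/PS1 PBS by only -0.18. Of 13 CON ASO mice, 10 lay below and 3 above every PBS-treated array. Of 12 CD33 ASO mice, 6 lay below and 2 above. The PBS-treated arrays spanned 10.7 to 11.5. The 3 CON ASO mice above them were mouse 49 at 12.0, mouse 30 at 11.8 and mouse 38 at 11.8, and the CD33 ASO mice were mouse 20 at 12.7 and mouse 43 at 12.5. Between 11.1 and 11.8 no ASO array was found. These 5 mice came from 4 chips and 3 collection days. Mice 38, 43 and 49 were all from day 4, which gave 4 CON ASO and 1 CD33 ASO hippocampal arrays. The part of the collection day was not tested.

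The mean absolute deviation of hippocampal Npy from its group median was 5.27 times as large in the 25 ASO arrays as in the 21 PBS arrays (permutation test over arrays, two-sided, adjusted p = 0.00585 over 18 tests). For hippocampal Cort the ratio was 3.49 (adjusted p = 0.00585). Of the remaining tests none passed: cortical Cort had a ratio of 2.41 (p = 0.0249, adjusted p = 0.149) and hippocampal Crhbp 1.94 (p = 0.0340, adjusted p = 0.153). Hippocampal Sst gave 1.00. Without mice 5, 13 and 31, which leaves 22 hippocampal ASO arrays, the permutation test gave ratios of 5.88 for hippocampal Npy (adjusted p = 0.00108), 3.08 for hippocampal Cort (0.00297), 2.34 for cortical Cort (0.144) and 2.11 for hippocampal Crhbp (0.0862). This test was added after the values had been seen, and it describes these mice. It was run on the members alone, so the share of all probes with a wider spread is not known. Hippocampal Gfap, which is no member, also spread more widely. Its SD was 0.22 in WT PBS, 0.18 in APP/PS1 PBS, 0.34 in CON ASO and 0.57 in CD33 ASO.

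With group means removed, hippocampal Npy and Crhbp varied together in the 20 ASO mice below the gap, with a Pearson's r of 0.78. It was 0.19 over the 21 PBS mice. Npy and Cort had r = 0.37 below the gap and 0.74 in PBS mice. The 5 ASO mice above the gap broke that order, with high Npy beside low Cort. Their Cort was 7.65 in mouse 38, 7.45 in mouse 30, 7.07 in mouse 49, 6.93 in mouse 43 and 6.26 in mouse 20, where PBS-treated mice had 8.95 or more. Cort below that limit was not particular to them: all 13 CON ASO and 10 of 12 CD33 ASO mice lay below it, with medians of 7.91 and 8.16. With the 5 mice included, r over all 25 ASO mice was -0.55, so its negative sign rests on those 5 mice. Mouse 20 had the highest Npy and the highest Crhbp of all hippocampal arrays (11.1) and the lowest Cort. Cort and Pvalb went together below the gap (0.67) and in PBS mice (0.59). Without mice 5, 13 and 31, over the 17 ASO mice left below the gap, r was 0.76 for Npy and Crhbp, 0.27 for Npy and Cort and 0.54 for Cort and Pvalb. These are descriptions of arrays that share chips and normalization, and differences between the sets of mice were not tested.

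**Figure D3:**
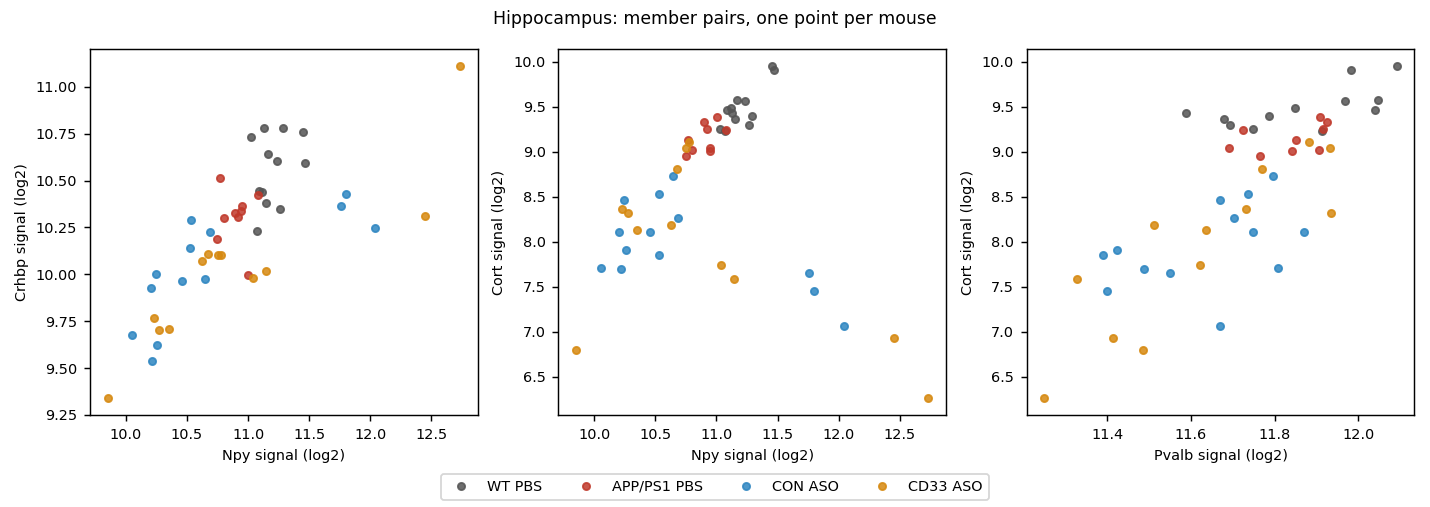
Hippocampal signals (log2) of Crhbp against Npy, Cort against Npy and Cort against Pvalb, with 1 point per mouse coloured by group. A group of 5 oligonucleotide-treated mice stands at Npy signals of 11.8 to 12.7, apart from all other arrays, and mouse 20 lies at the top of Crhbp and the bottom of Cort.

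The genes most like hippocampal Npy among 10041 named genes were Scg2 (r = 0.87), Trak2, an adaptor of mitochondrial transport (0.85), and Gal, the precursor of galanin (0.83). These values include the 5 mice above the gap. Below it, r was 0.85 for Scg2, 0.68 for Trak2 and 0.19 for Gal, and 0.86, 0.73 and 0.36 without mice 5, 13 and 31. Because these genes were picked by an r that includes the 5 mice, high values in those mice are no separate result. All 5 mice above the gap had Gal above the 4.87 to 5.74 of PBS-treated mice: it read 8.72 in mouse 20, 8.15 in mouse 43, 7.30 in mouse 30, 7.08 in mouse 49 and 6.63 in mouse 38. Mice below the gap exceeded that range too, at 6.71 in mouse 26, 6.29 in mouse 35, 5.98 in mouse 28 and 5.79 in mouse 3. Scg2 read 12.1 in mouse 43 and 11.9 in mouse 20, above every PBS-treated mouse. In the 3 CON ASO mice above the gap it read 11.39 (mouse 30), 11.40 (mouse 49) and 11.40 (mouse 38). These values lay within the 11.2 to 11.7 of WT PBS mice and above the highest APP/PS1 PBS value, 11.35. In PBS mice alone the correlation with Npy was 0.39 for Scg2, -0.11 for Trak2 and -0.28 for Gal. The genes most like hippocampal Cort were Opalin, a myelin protein (0.77), Gm5796 (0.76) and Cartpt (0.72), with 0.76, 0.72 and 0.65 below the gap (0.70, 0.71 and 0.76 without mice 5, 13 and 31) and 0.18, 0.25 and 0.67 in PBS mice. Those most like Crhbp were Npy, Rgs4, a regulator of G protein signalling (0.75), and Scg2 (0.74).

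Gfap moved with the gap in Npy. The 5 mice above the gap had the 5 highest hippocampal Gfap values of all arrays: 11.5 in mouse 43, 11.3 in mouse 20, 11.0 in mouse 30 and 10.6 in mice 49 and 38, with mouse 26 next, also at 10.6. Below the gap its r was -0.62 with Cort and 0.17 with Npy, and without mice 5, 13 and 31 it was -0.51 and 0.36. In PBS mice it was -0.35 and -0.14. Its level ranged from 9.77 to 11.0 in CON ASO and from 9.56 to 11.5 in CD33 ASO, against 9.91 to 10.4 in APP/PS1 PBS, and its part in the peptide values was not tested.

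In frontal cortex, Npy was most like Cck (r = 0.68 over 45 arrays, 0.88 in PBS mice) and Vgf (0.64). Sst was most like Uqcrb, a subunit of mitochondrial complex III, Gap43, a protein of growth cones, and Olfm3 (0.86, 0.86 and 0.85), and Vip most like Tmem178 (0.88). Adcyap1 was most like Kcnv1 (0.64), a potassium channel subunit. Cort followed Diras2 (0.76), Cck followed Enc1 (0.73), Pvalb followed Hr (0.67), Tac1 followed Kcnip2 (0.73) and Crhbp followed Syn2, a synaptic vesicle protein (0.68).

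For Cort, Sst and Pvalb, and less firmly for Vip, a mouse high in one tissue for its group tended to be high in the other. Only the 9 members were tested, so the share of all probes with such a relation is not known. With group means removed, over 44 mice, Pearson's r was 0.69 for Cort (Spearman's rho 0.55, two-sided permutation p = 9e-05, adjusted over 9 members 2.7e-04). Sst gave r = 0.59 (rho 0.61, permutation p = 3e-05, adjusted 1.35e-04), and Pvalb r = 0.53 (rho 0.51, permutation p = 8.8e-04, adjusted 0.00198). Vip gave r = 0.43 (rho 0.41, permutation p = 0.00445, adjusted 0.00801). Without mouse 5, r was 0.64 for Cort, 0.56 for Sst, 0.50 for Pvalb and 0.43 for Vip, and all 4 passed the permutation test (adjusted p up to 0.0107).

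Npy is given by treatment because its hippocampal values in ASO mice fell apart. It reached r = 0.51 in 21 PBS mice, and 0.47 in the 18 ASO mice below the gap. No pooled value is given for it.

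The relations held with day means removed, at 0.72 for Cort, 0.55 for Sst, 0.56 for Pvalb and 0.44 for Vip. Within single collection days of 9 to 12 mice, r ranged from 0.59 to 0.81 for Cort, 0.43 to 0.71 for Sst, 0.36 to 0.68 for Pvalb and 0.27 to 0.48 for Vip. Without the 2 mice farthest from the cortical median, r was 0.51 for Cort, 0.58 for Sst and 0.52 for Pvalb. Vip dropped to 0.32 and no longer passed (adjusted p = 0.0686), so that its relation rests in part on those mice. Tac1 (r = 0.05, rho 0.10) and Cck (r = 0.09, rho 0.14) did not pass, although Cck had r = 0.68 on 1 day and as little as -0.20 on another. By permutation, Crhbp did not pass by r (0.33, adjusted p = 0.0813) but did by rho (0.36, adjusted p = 0.0337), and Adcyap1 passed by neither (r = 0.30, adjusted p = 0.0802, and rho 0.31, adjusted p = 0.0598).

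**Figure D4:**
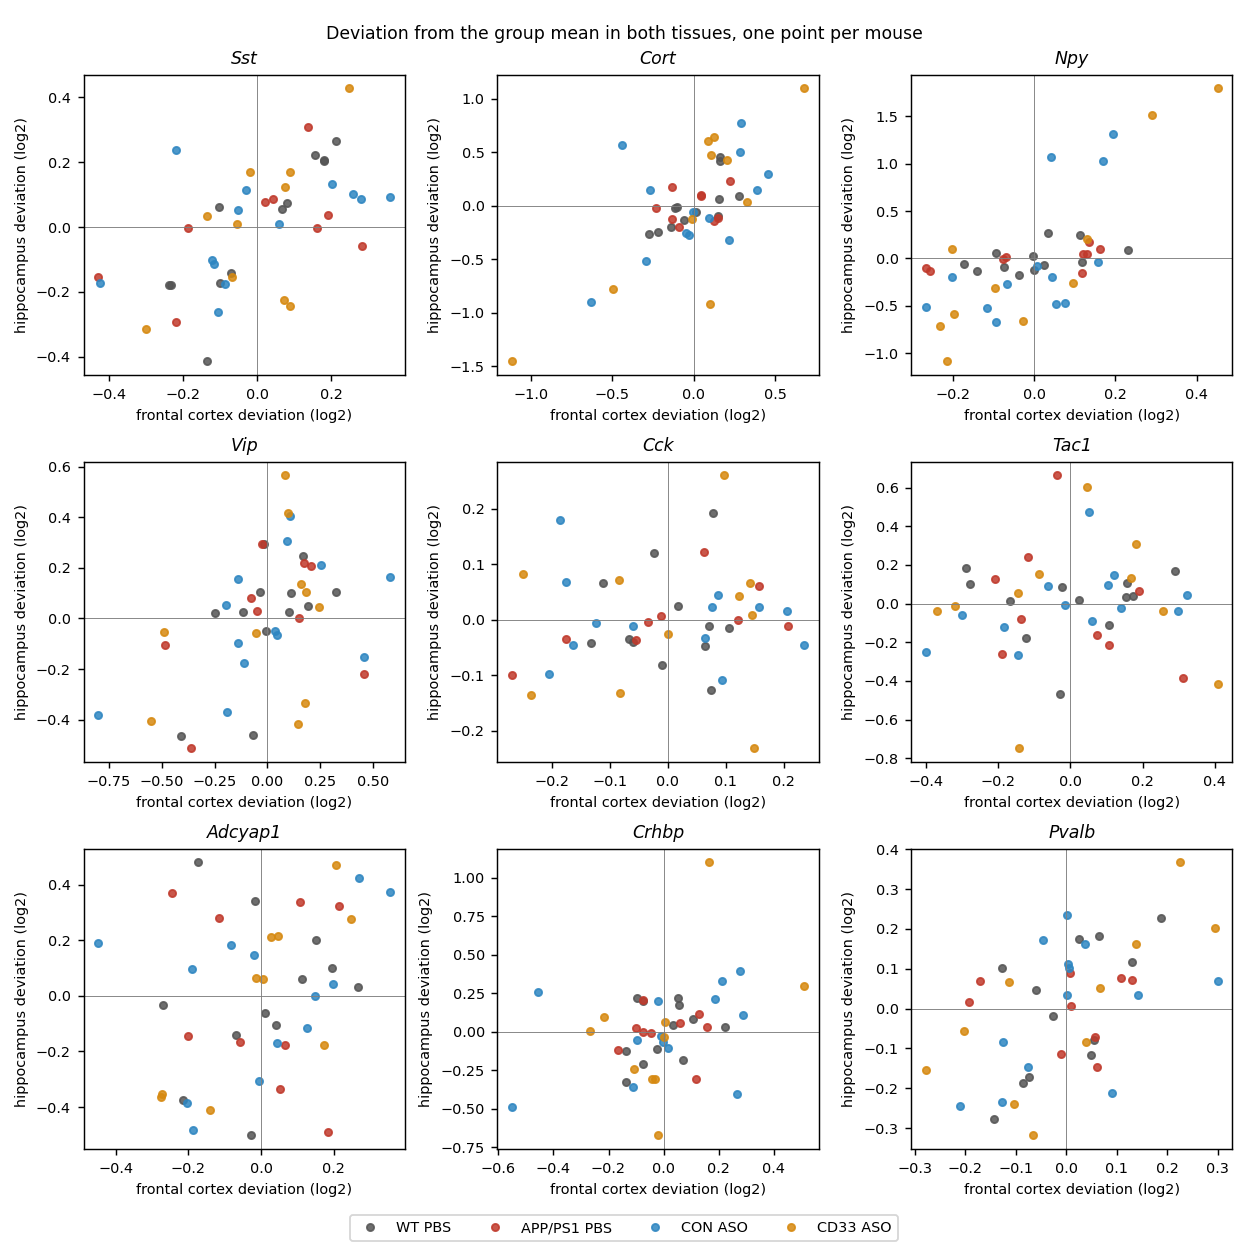
Deviation of each mouse from its group mean in frontal cortex (horizontal) and hippocampus (vertical), in log2 signal, for 44 mice with both tissues. Points run from lower left to upper right for Cort (r = 0.69) and Sst (r = 0.59), and show no such run for Tac1 (r = 0.05).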

How the data were processed

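Total RNA of both tissues was hybridised to Illumina bead arrays. The authors' deposited table gives, per the file headers, an intensity and a detection p-value for 25697 probes on each array. Intensities below 0 show that a background had been subtracted before deposit. The authors' deposited value table holds 17885 probes on a log2 scale whose offset stays unknown, and served as an alternative. BeadStudio, GenomeStudio and Partek are named in the submitters' processing notes. Array annotation gave 16814 probes 1 symbol and 8883 none.

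Groups, animal numbers, chips and days came from the labels. Their treatment text counts 8 and 11 PBS mice, and their titles 9 and 12; titles were used. Per tissue, intensities were corrected with neqc (limma 3.58.1, R 4.3.3, offset 16, quantile normalization, log2). Probes with detection p under 0.05 on at least 9 arrays were kept: 14346 in cortex and 14449 in hippocampus. Group means were fitted with limma (trend and robust moderation), with Benjamini-Hochberg adjustment over all probes and a threshold of 0.05. All p-values are two-sided. Tissues were compared by fitting all 91 arrays at once, normalized together, and treating each mouse as a random block (correlation 0.169, statmod 1.5.0, 14884 probes). A test on simulated data with known changes preceded the fits. Correlations used 100000 permutations within groups. The number of arrays limits the precision.

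Members and lists were chosen with earlier results of these data known. Named were all member probes in every comparison, up to 4 genes of smallest p per list past the threshold, any tested receptor or dissection marker, the 3 named genes of highest r per member and tissue, and Cd33, Thy1, App and Cst7 as label checks; not all are printed. Avil, Gad1, Slc17a7 and, in hippocampus, Gfap were added after values were seen, as were the spread test and the correlations by treatment, within days and below the gap in Npy, and their values without mice 5, 13 and 31. Alternatives were no background correction, median centring, the deposited values, no filter and a stricter one, array weights, chip, day or replicate number as a block, compared groups alone, each array left out, mice with both tissues alone and no mouse block. Promoter windows came from RefSeq (GRCm38.p6), which held 9 of 10 members.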

Additional observations from a re-analysis of the deposited data

Results flagged for a closer look

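In 4 genes the effect of 1 contrast differed between the tissues by a test of the interaction (limma with the mouse as a random block). The genotype difference of Adcyap1 was 0.58 (log2) less negative in hippocampus than in frontal cortex (adjusted p = 0.00979), and that of Cck 0.26 less negative (adjusted p = 0.0142). The CON ASO difference from APP/PS1 PBS was more negative in hippocampus for Cort, by -1.17 with the brighter probe and -1.24 with the dimmer one, and for Crhbp, by -0.62 (adjusted p = 0.0304 for each). Of 18 sets of 9 APP/PS1 PBS arrays, 0 held an array that stood apart by Dixon's test, where chance gives about 1 in 20.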

How the results depend on the processing

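Counts of members passing kept within 1.5 times of the reported count in 99 of 112 recomputed values, and 0 called values changed sign. The CON ASO comparison with APP/PS1 PBS gave, in hippocampus, 1 member without the filter, 4 with array weights and 4 with the chip as a block, against 2 as reported. For genotype in hippocampus the count was 2 with the chip as a block and 4 with the compared groups alone, against 1. For CD33 ASO against APP/PS1 PBS in hippocampus it was 2 with the chip as a block, 0 with the compared groups alone (fewer groups share the spread) and 2 over mice with both tissues, against 1. The tissue interaction of CON ASO gave 0 without the mouse block and 0 without the filter, against 2. Leaving out single arrays gave 6 to 7 members for genotype in cortex, 0 to 1 in hippocampus and 1 to 2 for CON ASO in hippocampus, and did not move the other counts. Without CD33 ASO array 3, whose label is in doubt, no count moved. Replicate numbers are shared between groups but mark different mice: the median correlation of same-numbered arrays was 0.09 in cortex and 0.16 in hippocampus, the lowest -0.26 and -0.45. With the replicate number as a block over 9 arrays per group, the cortical counts were 7 for genotype, 2 for CON ASO, 0 for CD33 ASO against PBS and 0 against CON ASO, and the hippocampal counts 2, 4, 1 and 0; the cause was not tested.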

Other observations

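In the 5 mice with the highest hippocampal Npy, cortical Npy read 12.0 in mouse 20, 11.9 in mouse 43, 11.9 in mouse 49, 11.9 in mouse 38 and 11.7 in mouse 30. PBS-treated mice of both genotypes spanned 11.3 to 12.1. APP/PS1 PBS mice alone spanned 11.3 to 11.7, so that mice 20, 43, 49 and 38 lay above all of them. Cortical Cort read 7.19 in mouse 20 and 7.81 in mouse 43, below all PBS-treated mice, and 8.89 in mouse 38. Mouse 39, which gave only a cortical array, had the lowest cortical Cort (6.57) and the lowest cortical Adcyap1 (7.42) of all mice, with Npy at 11.4.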
